A study of Mus musculus with 8 samples.

Results

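The genes described here are the TAM receptors Axl, Mertk and Tyro3, their ligands Gas6 and Pros1, and Mfge8, a bridging protein of the same clearance system. They were taken by gene symbol and make up 6 of the 54752 genes in the count tables. Each symbol matched 1 gene. RNA was sequenced from the right cerebral cortex of wild-type C57BL/6 mice (adult male C57BL/6 J according to the methods), 4 Sham and 4 BCAS, 1 mouse per library. In BCAS (bilateral carotid artery stenosis) a microcoil was wrapped around each common carotid artery, with the narrower coil on the right, the side that was sequenced. Sham mice had the operation without coils, and the cortex of both groups was taken 3 weeks after surgery. The libraries were bulk tissue, so for any gene more cells of a type and more RNA per cell cannot be told apart.

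TAM receptors are receptor tyrosine kinases that recognise dying cells indirectly. Gas6 and protein S (Pros1) are vitamin K-dependent proteins that hold phosphatidylserine, a lipid exposed on dying cells, at one end and a TAM receptor at the other. Gas6 binds every TAM receptor, whereas protein S activates Tyro3 and Mertk but not Axl. In the brain Mertk and Axl are known from microglia and macrophages, Mertk also from astrocytes, and Tyro3 from neurons. Mfge8 binds phosphatidylserine too, but hands its cargo to integrins and not to TAM receptors. TAM signalling also dampens innate immune responses.

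The libraries held between 16759364 and 21794435 counts. The lowest count of any of the 6 genes was 263 (Pros1 in Sham mouse 1), so their levels were far above the 3 counts taken as the detection floor. Levels are given as CPM, counts divided by depth and scaled between libraries by edgeR's trimmed mean of M-values (TMM). Differences are log2 fold changes of BCAS over Sham from edgeR's quasi-likelihood test, adjusted by Benjamini-Hochberg over the 17136 tested genes. A gene is called where the adjusted p is under 0.05 and the absolute log2 fold change is above 1, the thresholds named in the methods. "Rose" and "fell" are used for an adjusted p under 0.05. The 5 cortical neuron markers (Cux2, Tbr1 and Rorb among them) summed to between 408 and 562 CPM in Sham mice. In BCAS mice they summed to between 142 and 363 CPM, so markers of the labelled tissue were present in both groups. Striatal markers were present too, with sums of 205 to 346 CPM in Sham and 267 to 554 CPM in BCAS mice. Sham mouse 3 stood apart in choroid plexus genes, with a sum of 767 CPM against 13.5 to 49.5 CPM in the other Sham mice.

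Axl, Mertk and Pros1 rose past both thresholds. Gas6 rose and Tyro3 fell by less than the fold threshold. Mfge8 did not pass the test. Thus 3 of the 6 genes were called, all of them higher, in a comparison where 12.2% of the tested genes were called and 11.0% were called higher. At an adjusted p under 0.05 alone, 5 of the 6 passed, against 32.0% of all tested genes. Of these 4 rose and 1 fell, where 19.2% of all tested genes rose and 12.8% fell. The groups did not overlap for 5 of the 6 genes, against 34.8% of all tested genes (BCAS higher for 18.5% and lower for 16.3%). The median log2 fold change of all tested genes was -0.01, with quartiles at -0.30 and 0.40.

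**Figure D1:**
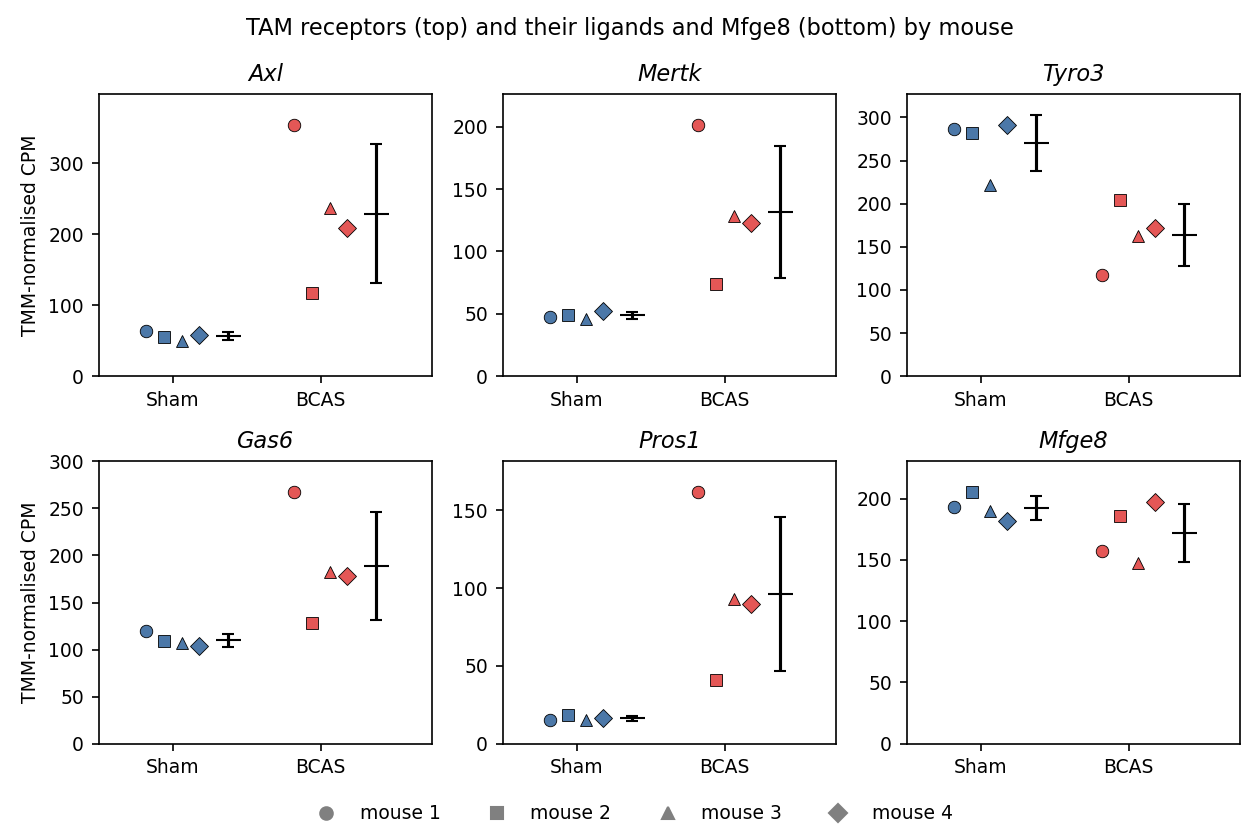
Level of each gene in each mouse, in TMM-normalised CPM on linear axes from 0, with Sham mice in blue and BCAS mice in red. The black marks give the mean ± SD of 4 mice. The groups are apart in every panel but that of Mfge8, where BCAS mice 2 (186 CPM) and 4 (197 CPM) lie among the Sham mice.

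The stretches just before the start sites of the 4 genes that rose are shown so that the letters before genes that moved together can be compared. The sequences and positions are RefSeq's for GRCm38.p6 (the mm10 assembly), 250 bases each, 5′ to 3′ on the strand of the gene, and all 6 genes had an entry. They were searched on both strands for the interferon-gamma activated (GAS) motif TTCNNNGAA, the core of the interferon-stimulated response element GAAANNGAA, the AP-1 motif TGANTCA and the GC box GGGCGG. Capitals mark the matches. The windows are chr7:25788734-25788983 on the minus strand for Axl, chr2:128698665-128698914 on the plus strand for Mertk, chr8:13494536-13494785 on the minus strand for Gas6 and chr16:62854057-62854306 on the plus strand for Pros1.
Axl: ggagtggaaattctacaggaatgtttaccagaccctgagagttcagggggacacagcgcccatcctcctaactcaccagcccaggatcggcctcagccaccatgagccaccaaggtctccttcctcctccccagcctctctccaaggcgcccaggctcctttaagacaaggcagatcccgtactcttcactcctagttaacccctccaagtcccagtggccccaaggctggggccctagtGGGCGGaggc
Mertk: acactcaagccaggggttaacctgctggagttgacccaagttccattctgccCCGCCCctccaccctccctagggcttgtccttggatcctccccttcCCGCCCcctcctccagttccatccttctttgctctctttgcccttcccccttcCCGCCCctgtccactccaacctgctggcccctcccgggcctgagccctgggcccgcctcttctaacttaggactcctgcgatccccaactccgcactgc
Gas6: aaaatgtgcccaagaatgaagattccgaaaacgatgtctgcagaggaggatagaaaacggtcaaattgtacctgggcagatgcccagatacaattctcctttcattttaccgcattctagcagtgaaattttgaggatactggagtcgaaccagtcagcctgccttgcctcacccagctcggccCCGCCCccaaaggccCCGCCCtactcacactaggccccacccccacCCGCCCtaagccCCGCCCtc
Pros1: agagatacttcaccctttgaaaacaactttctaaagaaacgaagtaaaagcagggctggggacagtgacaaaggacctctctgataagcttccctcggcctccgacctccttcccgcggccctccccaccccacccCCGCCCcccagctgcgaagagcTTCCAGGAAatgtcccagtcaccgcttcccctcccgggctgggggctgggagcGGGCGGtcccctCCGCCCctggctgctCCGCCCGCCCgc

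The window of Pros1 held 1 match to the GAS motif, reading TTCCAGGAA, and 5 GC boxes, of which the last 2 overlap. Those of Axl, Mertk and Gas6 held 1, 3 and 4 GC boxes and no GAS match. The window of Mfge8 held 4 GC boxes. That of Tyro3, which lies inside the GENCODE span of the gene because RefSeq places the start further downstream, held 3 and is not a stretch before the annotated gene. None of the 6 windows held an AP-1 or response element core match. Of 32851 RefSeq promoter windows of this length, 7.02% held the GAS motif, 7.13% the response element core, 6.75% the AP-1 motif and 32.7% a GC box. A match describes letters and is not evidence of binding.

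Axl, the receptor whose ligand is Gas6, stood at 63.4, 55.8, 50.2 and 57.7 CPM in Sham mice 1 to 4 and at 354, 117, 237 and 209 CPM in BCAS mice 1 to 4. All BCAS mice were above all Sham mice, and BCAS mouse 1 was the highest by far. The mean went from 56.8 ± 5.46 to 229 ± 97.9 CPM (SD, n = 4), which gave a log2 fold change of 2.01 ± 0.29 (SE, edgeR adjusted p = 0.00280). Its fold change was 4.04, with a 95% interval from 2.59 to 6.32. Axl (ENSMUSG00000002602.16) lies on the minus strand of mm10 at chr7:25757273-25788705.

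Mertk, the receptor through which phagocytes take up apoptotic cells, stood at 47.8, 49.1, 46.0 and 52.0 CPM in Sham mice 1 to 4 and at 201, 73.6, 128 and 123 CPM in BCAS mice 1 to 4. The Sham mice lay close together and every BCAS mouse was above them. The mean went from 48.7 ± 2.56 to 132 ± 52.7 CPM (SD, n = 4), which gave a log2 fold change of 1.43 ± 0.25 (SE, edgeR adjusted p = 0.00567). The fold change was 2.70, with a 95% interval from 1.82 to 4.0, so changes below the fold threshold lie inside it (adjusted p = 0.244 in edgeR's glmTreat test against a log2 fold change of 1). Mertk (ENSMUSG00000014361.5) lies on the plus strand at chr2:128698956-128802894.

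Tyro3, the TAM receptor of neurons, was the most abundant of the receptors in Sham cortex. It stood at 287, 282, 222 and 291 CPM in Sham mice 1 to 4 and at 117, 204, 163 and 172 CPM in BCAS mice 1 to 4. Every BCAS mouse was below every Sham mouse, although the gap between Sham mouse 3 and BCAS mouse 2 was small. The mean went from 271 ± 32.7 to 164 ± 36.0 CPM (SD, n = 4). The log2 fold change was -0.72 ± 0.17 (SE, edgeR adjusted p = 0.0149), with a 95% interval from -1.10 to -0.34. Tyro3 (ENSMUSG00000027298.17) lies on the plus strand at chr2:119797733-119818104.

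Gas6, the ligand of every TAM receptor, stood at 120, 109, 107 and 104 CPM in Sham mice 1 to 4 and at 267, 128, 183 and 179 CPM in BCAS mice 1 to 4. BCAS mouse 2 was only just above the highest Sham mouse. The mean went from 110 ± 6.88 to 189 ± 57.5 CPM (SD, n = 4), which gave a log2 fold change of 0.78 ± 0.19 (SE, edgeR adjusted p = 0.0181). The fold change was 1.72, with a 95% interval from 1.28 to 2.33. Without Sham mouse 2 or Sham mouse 4 the adjusted p of Gas6 was 0.0532 or 0.0554. Gas6 (ENSMUSG00000031451.6) lies on the minus strand at chr8:13465374-13494490 and shares 1.33% of its exon bases with Tmem255b on the other strand. The other 5 genes share none.

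Pros1, which encodes protein S, an anticoagulant plasma protein as well as a TAM ligand, was the scarcest of the 6 genes in Sham cortex. It stood at 14.9, 18.6, 15.2 and 16.7 CPM in Sham mice 1 to 4 and at 162, 41.1, 92.9 and 89.7 CPM in BCAS mice 1 to 4. The lowest BCAS mouse was well above the highest Sham mouse. The mean went from 16.4 ± 1.70 to 96.3 ± 49.5 CPM (SD, n = 4), which gave a log2 fold change of 2.56 ± 0.35 (SE, edgeR adjusted p = 0.00260). The fold change was 5.89, with a 95% interval from 3.41 to 10.2. Pros1 (ENSMUSG00000022912.8) lies on the plus strand at chr16:62854307-62929346.

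Mfge8, a secreted protein of astrocytes and phagocytes, stood at 193, 205, 190 and 182 CPM in Sham mice 1 to 4 and at 157, 186, 147 and 197 CPM in BCAS mice 1 to 4. The groups overlapped. The mean was 192 ± 9.58 in Sham and 172 ± 23.6 CPM in BCAS mice (SD, n = 4), a log2 difference of -0.16 ± 0.11 (SE, edgeR adjusted p = 0.263). The 95% interval ran from -0.41 to 0.08. Mfge8 (ENSMUSG00000030605.15) lies on the minus strand at chr7:79133768-79149060.

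The spread between mice was wider after BCAS. The coefficient of variation of the CPM was between 4.98% and 12.1% for the 6 genes in Sham mice and between 13.7% and 51.4% in BCAS mice. Among BCAS mice it was widest for Pros1 (51.4%, against 10.4% in Sham mice). Axl, Mertk, Gas6 and Pros1 had the same order in the BCAS group, with mouse 1 highest, then mouse 3, mouse 4 and mouse 2. Tyro3 had the opposite order, with mouse 1 lowest and mouse 2 highest. This order is given as a description of 4 mice.

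Because genes differ in length, levels between genes were compared as CPM per kilobase of exon. In Sham cortex the mean levels per kilobase of Tyro3 (43.7 ± 5.27), Gas6 (43.1 ± 2.70) and Mfge8 (41.0 ± 2.04) had overlapping ranges of mean ± SD. So had Axl (11.3 ± 1.08) and Mertk (11.2 ± 0.59), and Pros1 (4.0 ± 0.42) was lowest in all 4 Sham mice. In BCAS cortex the order of the means was Gas6 (74.2 ± 22.6), Axl (45.6 ± 19.5), Mfge8 (36.6 ± 5.03), Mertk (30.3 ± 12.2), Tyro3 (26.5 ± 5.80) and Pros1 (23.6 ± 12.1), all as CPM per kilobase ± SD over 4 mice. Gas6 was first in each of the 4 BCAS mice and thus above Axl in every one, and for all neighbours in this order, Gas6 and Axl included, the ranges of mean ± SD overlapped. Axl was above Tyro3 in BCAS mice 1, 3 and 4, and Tyro3 was still above Axl in BCAS mouse 2.

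The makeup of the receptor pool differed between the groups. Of the summed CPM per kilobase of the receptors, Tyro3 took 65.9% ± 1.6 in Sham mice and 28.2% ± 12.9 in BCAS mice (SD, n = 4). In BCAS mice 1 to 4 its share was 13.9%, 45.1%, 25.6% and 28.4%. The share of Axl was 17.1% ± 0.91 in Sham and 43.0% ± 8.43 in BCAS mice. Mertk held 17.1% ± 1.27 in Sham and 28.8% ± 4.49 in BCAS mice. The summed receptor level was 66.2 ± 6.62 CPM per kilobase in Sham and 102 ± 25.8 in BCAS mice. On the ligand side, Pros1 made up 8.52% ± 1.07 of the sum of Gas6 and Pros1 in Sham mice and 23.0% ± 4.51 in BCAS mice. In BCAS mice 1 to 4 that share was 27.4%, 16.7%, 24.1% and 23.8%.

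**Figure D2:**
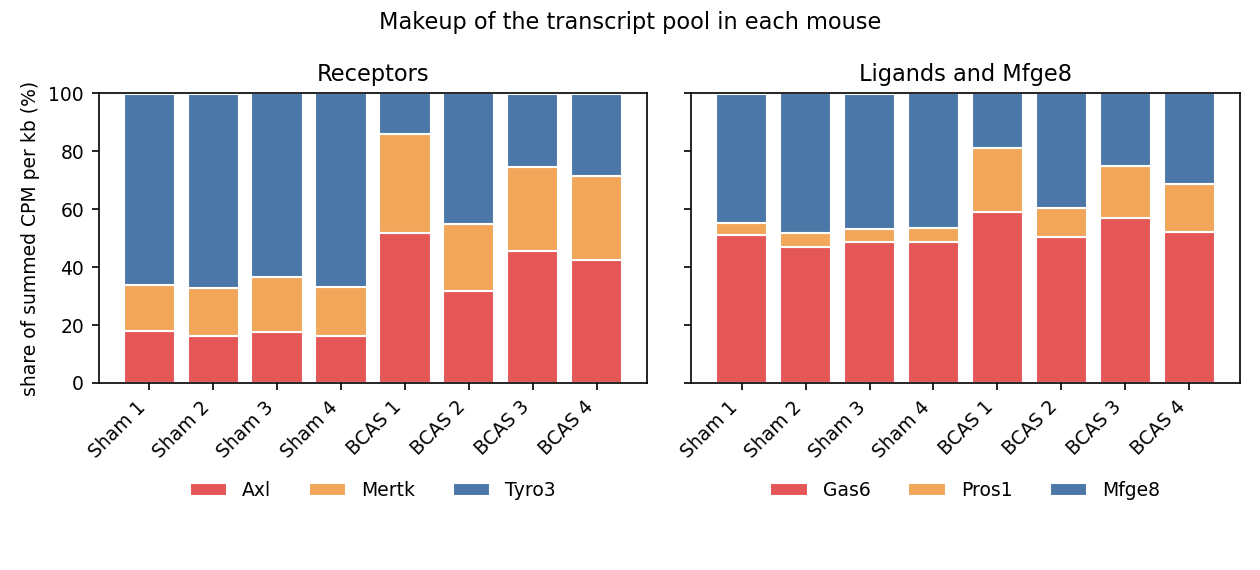
Share of each gene in the summed CPM per kilobase (%), by mouse, for the receptors on the left and for Gas6, Pros1 and Mfge8 on the right. Tyro3 holds most of the receptor pool in every Sham mouse, and in BCAS mouse 1 it holds 13.9%.

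Differences in the amount of change were tested with 6 ratios, among the receptors and among Gas6, Pros1 and Mfge8. The ratios were taken within each library and do not depend on the scaling between libraries. The test was an exact two-sided permutation test over the 70 arrangements of the 8 libraries. For all 6 ratios the groups did not overlap and p was 0.0286, the smallest value that 4 against 4 can give (0.0286 after adjustment over the 6 ratios). The ratios are not independent, because in each set any ratio follows from the others. Every BCAS mouse was above the Sham mice for Axl and Mertk and below them for Tyro3, so the ratios to Tyro3 had to separate. No share over other gene pairs was worked out, and 34.8% of all tested genes did not overlap on their own. The ratio of Axl to Mertk per kilobase was 1.00 in Sham and 1.48 in BCAS mice, so Axl rose more than Mertk by 0.57 on the log2 scale. The ratio of Axl to Tyro3 went from 0.26 to 1.63, a log2 difference of 2.65. That of Mertk to Tyro3 went from 0.26 to 1.10, a log2 difference of 2.09. Pros1 to Gas6 went from 0.093 to 0.294, a log2 difference of 1.67. Gas6 to Mfge8 went from 1.05 to 1.97, a log2 difference of 0.91, and Pros1 to Mfge8 from 0.097 to 0.581, a log2 difference of 2.58. Pros1, which does not activate Axl, thus gained on Gas6, and Axl gained on both other receptors.

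Many cell type markers also differed between the groups. Of all tested genes, 11.0% were called higher and 1.28% lower, and at an adjusted p under 0.05 alone 19.2% rose and 12.8% fell. All 10 microglia markers were called higher, and their sum went from between 401 and 481 CPM in Sham mice to between 1585 and 5790 CPM in BCAS mice. In BCAS mice 1 to 4 the log2 of this sum exceeded the Sham mean by 3.71, 1.84, 2.68 and 2.80. Of 7 border macrophage markers 5 were called higher, with a sum of 17.2 to 21.2 CPM in Sham and 32.0 to 118 CPM in BCAS mice. All 5 fibroblast markers were called higher (51.6 to 73.2 against 135 to 867 CPM). Of 7 monocyte and neutrophil markers 2 passed the expression filter and both were called higher (sum 0.84 to 1.5 against 3.55 to 84.0 CPM), and Ly6g was at 0 counts in every library. Of 9 lymphocyte markers 3 passed the filter and 2 were called higher (7.54 to 14.5 against 9.72 to 66.2 CPM). Of 8 neuron markers 1 was called lower, Snap25, and 6 fell at an adjusted p under 0.05, with a sum of 9055 to 10490 CPM in Sham and 3693 to 7718 CPM in BCAS mice. Of 5 cortical neuron markers 1, Tbr1, was called lower and 3 fell. Of 7 astrocyte markers 1 was called higher, Aqp4, and 5 rose (sum 4454 to 5232 against 5192 to 6134 CPM). At an adjusted p under 0.05, 2 of 6 endothelial, 2 of 6 pericyte and smooth muscle, 1 of 5 striatal and 2 of 4 hemoglobin markers rose. The striatal count is near the 19.2% of all tested genes that rose. BCAS mouse 4, the BCAS mouse with the highest Mfge8, stood apart in striatal markers, with a sum of 554 CPM against 267 to 269 CPM in the other BCAS mice. The oligodendrocyte sum was 3769 to 6064 CPM in Sham and 5266 to 8177 CPM in BCAS mice, with overlap. The part of these cell types in the changes of the 6 genes was not tested.

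Set over the summed markers of the same mouse, the genes moved by other amounts. Axl over the microglia sum was lower in BCAS than in Sham mice by a mean log2 difference of -0.85, with BCAS mice between -1.06 and -0.62. For Mertk over the microglia sum the mean was -1.41, and for Gas6 it was -2.02. Pros1 over the microglia sum came nearest to no difference, at -0.35 (from -0.50 to -0.17 in single BCAS mice). Mertk over the sum of the 7 astrocyte markers was higher by 1.11 (from 0.48 to 1.77), and Mfge8 over the same sum was lower, at -0.40 (from -0.57 to -0.16). Slc1a2, a glutamate transporter with a mean of 3526 CPM in Sham and 3574 CPM in BCAS mice, makes up most of that sum. The log2 fold change of single astrocyte markers ran from 0.02 (Slc1a2) to 1.65 (Aqp4), the latter above that of Mertk. Tyro3 over the neuron sum differed by 0.09 (from -0.04 to 0.22), and the Sham mice had an SD of 0.11. These are descriptions over 4 mice a group and were not tested.

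**Figure D3:**
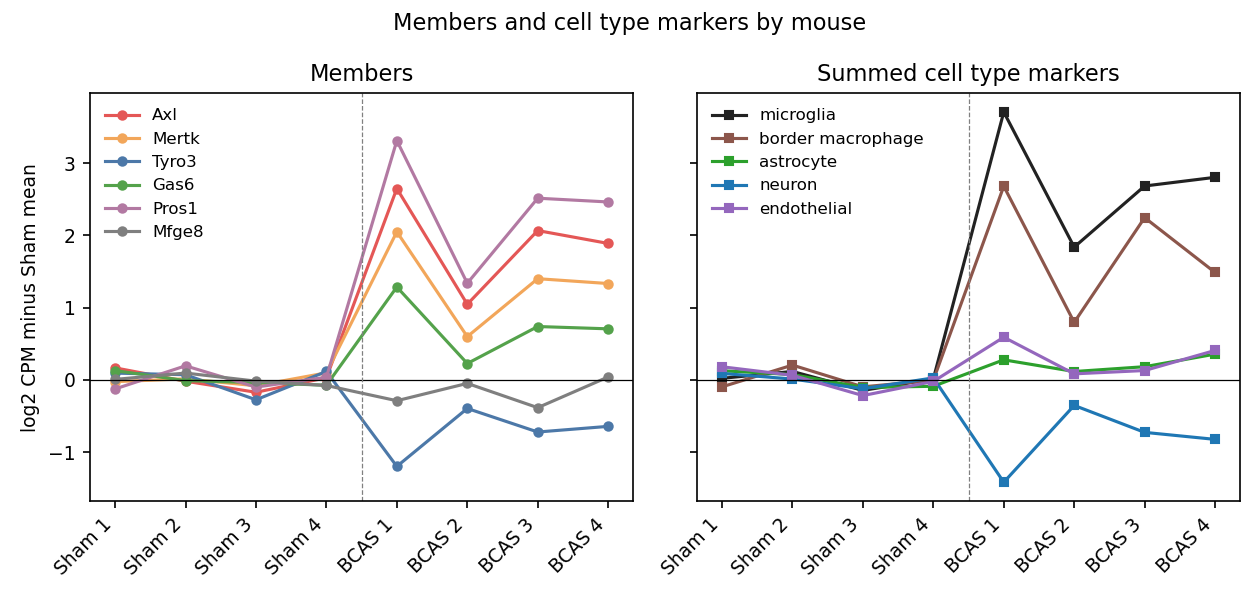
Log2 CPM of each gene (left) and of the summed markers of 5 cell types (right) minus the Sham mean, for each of the 8 mice in the same order. BCAS mouse 1 has the largest and BCAS mouse 2 the smallest rise of Axl, Mertk, Gas6, Pros1 and the microglia sum, and the neuron sum is lowest in BCAS mouse 1.

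The other genes of the pathway were read from 7 lists with 50 genes, of which 45 were tested. Of these 20 (44.4%) were called, all of them higher, with a median log2 fold change of 0.61, beside 11.0% called higher and 1.28% called lower over all tested genes. At an adjusted p under 0.05 alone, 28 (62.2%) rose and 3 (6.67%) fell, beside 19.2% and 12.8% of all tested genes. Of these 31 genes, 18 kept an adjusted p under 0.05 whichever mouse was left out and 13 lost it without at least 1 mouse. The latter included Lrp1, Dock1, Xkr8, Atp11a and Adam10, as well as Procr, which lost it in 5 of the 8 fits, Vav3, Ggcx and Twist1, which each lost it in 7, and Elmo2, which lost it in all 8. Of the 20 called genes, 15 stayed called whichever of the 8 mice was left out. The exceptions were Gulp1, Ano6, Procr, Socs1 and Twist1. Of those 15, 13 also stayed called under every other normalization, filter and test that included them (the replicate block too), and Lgals3 and Vkorc1 did not. For pathway genes the value after ± is the SE of a log2 fold change or the SD of a CPM over 4 mice.

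**Figure D4:**
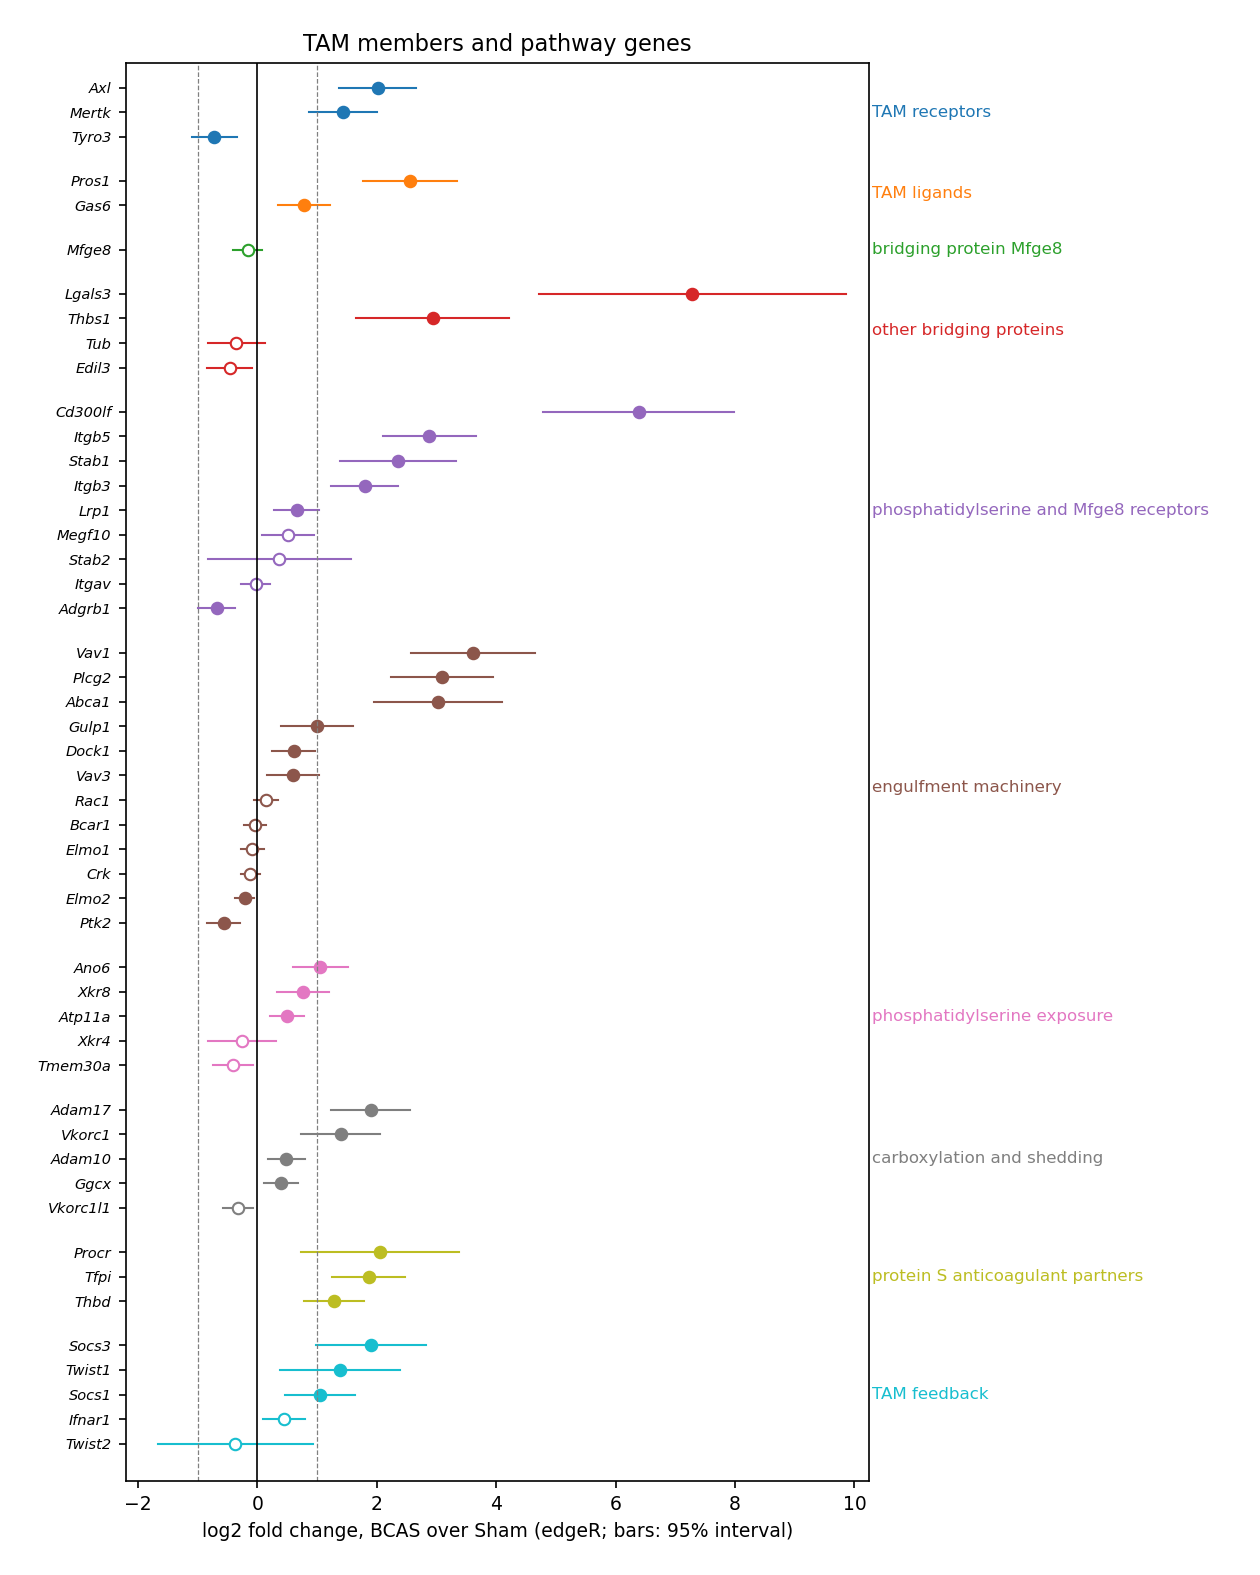
Log2 fold change of BCAS over Sham with its 95% interval (edgeR, 4 mice a group) for the 6 genes and 43 of the 45 tested pathway genes, by list. Filled points have an adjusted p under 0.05, and the dashed lines mark a log2 fold change of 1 in either direction. Itgb5 lies at 2.88 and Itgav, with which it pairs, at -0.03.

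Among the other bridging proteins, 2 of 4 tested genes were called higher. Lgals3 (galectin-3, a lectin described as a Mertk ligand) stood at 0.34, 0.56, 0.57 and 0.06 CPM in Sham and at 124, 4.88, 90.5 and 23.3 CPM in BCAS mice. It was near the detection floor in Sham mice, with 1 to 10 counts a library, and the size of its fitted change is imprecise (log2 fold change 7.28 ± 1.14, edgeR adjusted p = 0.00375). Under limma-voom it did not pass (log2 fold change 6.69, adjusted p = 0.119). Thbs1, a secreted matrix protein that bridges apoptotic cells to phagocytes, rose by 2.94 ± 0.57 on the log2 scale. Edil3, a relative of Mfge8, had a log2 difference of -0.46 (adjusted p = 0.0621), and Tub, described as a Mertk ligand, one of -0.36 (adjusted p = 0.216). Tulp1 was too low to test, with at most 13 counts in a library.

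Among receptors for phosphatidylserine or Mfge8, 4 of 9 tested genes were called higher, 5 rose and 1 fell. Itgb5, the beta chain that pairs with Itgav to bind Mfge8, stood at 55.6, 54.9, 54.1 and 53.2 CPM in Sham and at 693, 183, 367 and 364 CPM in BCAS mice. Its log2 fold change was 2.88 ± 0.35 (edgeR adjusted p = 0.00195). Every BCAS mouse was well above the Sham mice, which lay within 53.2 to 55.6 CPM. Itgb3, the other beta chain of Mfge8 receptors, rose by 1.80 ± 0.24, from 5.09 to 17.7 CPM. The shared alpha chain Itgav stood at 133 to 154.5 CPM in Sham and 128 to 170 CPM in BCAS mice, with a log2 difference of -0.03 (adjusted p = 0.841) that turned positive under library size scaling and without BCAS mouse 2 or 4. Stab1 (stabilin-1, a scavenger receptor) rose by 2.36 ± 0.43 and Lrp1, an engulfment receptor, by 0.66 ± 0.17. Cd300lf, a receptor of myeloid cells, stood at 0.11 to 0.30 CPM in Sham and 4.47 to 30.8 CPM in BCAS mice, where the Sham value rests on 2 to 5 counts a library. Adgrb1 (Bai1), an adhesion receptor found on neurons and astrocytes, fell by 0.68 on the log2 scale (SE 0.14, edgeR adjusted p = 0.00943). Megf10, an astrocyte engulfment receptor, had a log2 difference of 0.51 (adjusted p = 0.0674), and Timd4 and Havcr1 were too low to test.

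Of the 12 genes of the engulfment machinery 4 were called higher, 6 rose and 2 fell. Vav1, a Rac exchange factor of blood-derived cells, stood at 4.11 to 4.67 CPM in Sham and at 18.5 to 101 CPM in BCAS mice (log2 fold change 3.61 ± 0.46). Plcg2, a phospholipase of myeloid cells, rose by 3.09 ± 0.38, and the cholesterol exporter Abca1 by 3.02 ± 0.47. The adaptor Gulp1 rose by 1.00 ± 0.27, at the fold threshold itself. Dock1 and Vav3, which activate Rac, rose by 0.61 and 0.60, and the focal adhesion kinase Ptk2 fell by 0.57 and Elmo2 by 0.21. Rac1, Crk, Bcar1 and Elmo1, which are used by most cells, did not pass the test, with log2 differences between -0.12 and 0.14. Rac1 shares 51.4% of its exon bases with Daglb on the other strand, so its value is uncertain.

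Of the 6 genes that set phosphatidylserine exposure 1 was called higher, the scramblase Ano6 (1.05 ± 0.20 on the log2 scale). The scramblase Xkr8 rose by 0.76, and the flippase Atp11a rose by 0.50. Xkr4 and Tmem30a, the flippase subunit, did not pass the test. Of the genes for gamma-carboxylation, which Gas6 and protein S need to bind the lipid, Ggcx rose by 0.40 and Vkorc1 by 1.40, while Vkorc1l1 had a log2 difference of -0.32 (edgeR adjusted p = 0.0541). Vkorc1 was read at 0.45 to 1.08 CPM in Sham mice and shares 47.7% of its exon bases with Gm21974, so its value is uncertain. With limma on log2(CPM + 1) its difference was 0.80, under the fold threshold. Adam17, the protease that sheds Mertk, rose from 17.8 ± 1.20 to 66.2 ± 28.8 CPM (log2 fold change 1.90 ± 0.29, edgeR adjusted p = 0.00344). Adam10, which sheds Axl, rose by 0.48 ± 0.14.

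Protein S also acts in anticoagulation, and all 3 tested partners were called higher. Tfpi, the inhibitor for which protein S is a cofactor, stood at 5.65 to 6.14 CPM in Sham and at 11.5 to 32.0 CPM in BCAS mice (1.87 ± 0.27 on the log2 scale). Thbd (thrombomodulin) rose by 1.28 ± 0.22, and Procr, the endothelial protein C receptor, by 2.05 ± 0.59 from a mean of 0.79 CPM, though it was called in only 3 of the 8 fits without a mouse. Proc and C4bp were too low to test. In the negative feedback list, in which TAM receptors work with the interferon receptor to induce Socs genes, 4 of 6 genes were called higher. Among them, Socs3 rose by 1.90 ± 0.41, Twist1 by 1.38 ± 0.45 (called in only 1 of the 8 fits without a mouse) and Socs1 by 1.04 ± 0.26. Ifnar1, the interferon receptor chain, had a log2 difference of 0.45 (edgeR adjusted p = 0.0526), and Twist2 did not pass the test.

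The genes with the pattern most like each of the 6 were sought among 12437 genes whose counts averaged at least 100, by the root-mean-square difference of log2 CPM over the 8 libraries, each gene centred on its Sham mean. For Axl these were Abcb1b (0.071), Vamp8 (0.084) and Parp10 (0.084), and for Mertk they were Plod3 (0.065) and Sdc4 (0.072). Npc2 (0.077), Zc3hav1 (0.107) and Man2b1 (0.108) came nearest to Pros1. Sh2b3 (0.038) came nearest to Gas6. Tyro3 was followed most closely by Amigo1 (0.049), Susd4 (0.050) and Iqsec2 (0.057), and Mfge8 by Rps19bp1 (0.055), Mlst8 (0.060) and Dmac2 (0.061). The nearest of the 6 genes to Axl was Pros1, at a distance of 0.38, rank 308 among the genes searched.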

How the data were processed

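The authors aligned trimmed reads to mm10 with HISAT2 and deposited raw counts per gene, without normalization, from featureCounts. The header of the deposited counts names featureCounts 2.0.1 and GENCODE vM20, counts pairs and gives no strand option, whereas per the labels the version was 1.6.3. Reads on more than 1 gene and on close gene copies are therefore less sure. Symbols came from the GENCODE vM21 table, which matched 54723 of 54752 gene IDs.

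Samples were grouped by the labels. Counts were analysed with edgeR 4.0.16 in R 4.3.3: TMM normalization, filterByExpr (minimum count 10, minimum total 15) and the quasi-likelihood F-test without covariates, with Benjamini-Hochberg adjustment over 17136 genes. The methods of the study used limma, kept as an alternative. The standard error is the log2 fold change divided by the root of its F-statistic. Lengths are merged exons of all isoforms, so levels per kilobase are approximate. Ratios were tested in Python 3.11.15. Procedures were tested on simulated data with an equal spread in both groups, unlike the wider spread of the BCAS mice here. Alternatives were DESeq2 1.42.0 and its size factors, upper quartile or library size scaling, other filters, limma 3.58.1, a replicate block, other fold thresholds and leaving out each mouse. The replicate numbers come from the sample titles and were not taken to pair the mice. Correlations of same-numbered deviations were between -0.114 and -0.00338, which cannot settle whether mice were paired.

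All 6 genes and every gene of the pathway lists could be named. Cell type markers were named where no library had a count, or among the 3 highest in Sham, and nearest genes by distance. Snap25 also falls under this rule. Cux2, Tbr1, Rorb and Aqp4 were named after their values were seen. The genes and lists were chosen with earlier results of these data known. Some genes of the lists and some nearest genes are not reported here.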

Additional observations from a re-analysis of the deposited data

Results flagged for a closer look

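Among 114 groups of 4 mice examined for the 6 genes, the 45 tested pathway genes and the 6 ratios, 3 held a mouse far from the rest, and chance flags about 1 group in 20. Tyro3 in Sham mice was 222 CPM in mouse 3 against 282 to 291 CPM in the others, a gap of 0.869 of the range. Sham mouse 3 is also the library with the high choroid plexus genes (Ttr at 695 CPM). Without it the log2 fold change of Tyro3 was -0.81.

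The scramblase Xkr8 in Sham mice was 5.88 CPM in mouse 3 against 4.25 to 4.52 CPM in the others. In BCAS mice Xkr8 was 10.6 CPM in mouse 4 against 6.90 to 7.40 CPM in the others.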

How the results depend on the processing

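The direction of all 6 log2 fold changes and their side of an adjusted p of 0.05 were kept under 9 other normalizations, filters, tests and the replicate block. Over these, the log2 fold change ranged from 1.89 to 2.11 for Axl, 1.33 to 1.53 for Mertk, -0.74 to -0.63 for Tyro3, 0.73 to 0.88 for Gas6, 2.34 to 2.65 for Pros1 and -0.18 to -0.07 for Mfge8. Leaving out 1 mouse gave 1.74 to 2.25 for Axl, 1.16 to 1.64 for Mertk, -0.83 to -0.58 for Tyro3, 0.59 to 0.95 for Gas6, 2.20 to 2.82 for Pros1 and -0.24 to -0.09 for Mfge8. Gas6 missed the threshold without Sham mouse 2 (0.77, adjusted p = 0.0532) or Sham mouse 4 (0.75, adjusted p = 0.0554), where fewer mice were tested.

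With 1 mouse left out, the counts of called genes ranged from 1644 to 2967 for all genes, 3 to 3 for the 6 genes and 15 to 20 for the pathway lists. The 220 genes called lower became 86 without Sham mouse 1 and 559 without BCAS mouse 2. At an adjusted p under 0.05 alone the counts were 5490, 5 and 31. Tested against a log2 fold change of 1 (glmTreat), they were 744, 2 and 11, and Mertk was the one of the 6 genes that lost its call (adjusted p = 0.244). Library size scaling moved the median log2 fold change of all genes from -0.01 to 0.08.

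Ratios without 1 mouse ranged from 0.53 to 0.63 (Axl to Mertk), 2.25 to 3.06 (Axl to Tyro3), 1.70 to 2.45 (Mertk to Tyro3), 1.55 to 1.85 (Pros1 to Gas6), 0.69 to 1.12 (Gas6 to Mfge8) and 2.24 to 2.97 (Pros1 to Mfge8), on the log2 scale. Their smallest possible exact permutation p is then 0.0571, so none can pass. With the replicate block the same ratios were 0.567, 2.652, 2.085, 1.667, 0.909 and 2.577, where 4 pairs cannot give an exact p below 0.125. The replicate block in edgeR called 1809 genes, 3 of the 6 and 18 of the pathway lists. The best-correlated BCAS mouse never had the Sham mouse's own number, which cannot settle whether the replicate numbers pair the mice.

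The genes were well counted, so the number of mice and their spread, and not depth, limit the intervals. Lgals3, Cd300lf, Vkorc1, Procr and Twist1 are low in Sham mice and their sizes are imprecise. Intervals and floors cover counting error and the spread between these mice only.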
